A study of Mus musculus with 20 samples.

Results

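The V0 fraction, taken from the tip of the ileal villus, was set against the V1 fraction, taken from just below it in the upper villus. Members were chosen by label alone, as the 4 arrays named for fraction V0 and the 4 named for fraction V1, which are 8 of the 20 arrays of the series. All came from the ileal epithelium of wild type male C57BL/6J mice aged 4 months, with no treatment, and the remaining arrays hold fractions V2, V3 and C1, 4 each, further down towards the crypt. The V0 fraction was the supernatant of a first stirred incubation of the opened ileum in chelating buffer. V1 and the fractions after it were shaken off the same tissue by hand in later rounds, so a fraction is defined by when cells came loose and is not a sorted cell population. The submitters describe 4 mice in all, but how arrays match up by mouse was not given in the sources used here. The arrays were therefore compared without pairing, and p-values measure only the spread between arrays, in the main fit over all 20.

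MicroRNAs (miRNAs) are short RNAs that lower the output of target mRNAs by pairing to them mainly through the seed, the stretch near their 5′ end. Enterocytes are born in the crypt, mature on their way up the villus and are shed at its tip, so V0 and V1 are neighbouring stages of 1 cell lineage. Many miRNAs mark a cell type: the miR-200 family marks epithelium, miR-192, miR-194 and miR-215 mark gut epithelium, miR-133a and miR-133b mark striated muscle, miR-143 and miR-145 smooth muscle, miR-199 and miR-214 fibroblasts and stroma, miR-486 and miR-451 red blood cells, and miR-223 myeloid leukocytes.

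Sequences are shown for the miRNAs on which the comparison turns, with the seed (bases 2 to 8 from the 5′ end) in capitals. Of the 22 names looked up, 18 matched a mature miRNA in RefSeq (build GRCm38.p6), and the sequences of the array's own probes were not used here. The first set had higher means in V0, the second had lower means in V0, and the third are epithelial miRNAs near the top of the signal range.
miR-24-2* (RefSeq miR-24-2-5p): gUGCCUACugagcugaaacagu
miR-133b (miR-133b-3p): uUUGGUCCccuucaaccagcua
miR-199a-3p, same for miR-199b: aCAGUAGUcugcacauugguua
miR-99b (miR-99b-5p): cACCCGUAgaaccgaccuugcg
miR-100 (miR-100-5p): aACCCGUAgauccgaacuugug
miR-125b-5p: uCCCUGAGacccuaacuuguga
miR-223 (miR-223-3p): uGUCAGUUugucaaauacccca
miR-195 (miR-195a-5p): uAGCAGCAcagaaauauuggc
miR-17 (miR-17-5p): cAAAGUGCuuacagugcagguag
miR-20a (miR-20a-5p): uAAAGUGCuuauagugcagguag
let-7d* (let-7d-3p): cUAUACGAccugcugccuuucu
miR-224 (miR-224-5p): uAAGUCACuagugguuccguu
miR-665 (miR-665-3p): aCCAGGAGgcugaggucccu
miR-423-5p: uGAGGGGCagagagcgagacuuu
miR-215 (miR-215-5p): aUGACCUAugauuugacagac
miR-192 (miR-192-5p): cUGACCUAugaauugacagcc
miR-200b (miR-200b-3p): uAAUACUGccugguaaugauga

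Within these sets, miR-99b and miR-100 shared the seed ACCCGUA, miR-17 and miR-20a shared AAAGUGC, and miR-215 and miR-192 shared UGACCUA. RefSeq places miR-99b-5p at chr17:17830194-17830215 on the + strand, inside the span of the gene Spaca6. miR-100-5p lies at chr9:41531437-41531458, and 1 of the loci of miR-125b-5p lies on the same strand of that chromosome at chr9:41581940-41581961. No overlapping gene span was found for either, but genes whose symbols start with Mir were left out of that search. miR-133b-3p, at chr1:20682834-20682855, lies in the span of the muscle transcript Lincmd1. The miR-199a-3p copy at chr1:162217883-162217904 lies in the spans of Dnm3 and Dnm3os, with the hairpin of miR-214 5444 bases away. miR-17-5p, at chr14:115043684-115043706, heads the cluster that also holds miR-20a, with 402 bases between both hairpins. The array annotation places miR-133a on chromosomes 18 and 2 and miR-486 on chromosome 8.

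Values are the average bead signal of a probe after the authors' quantile normalization, on the log2 scale, and a difference is the V0 mean minus the V1 mean. Probes entered the test if every V0 array, or every V1 array, detected them (detection p-value of 0.01 or less), which held for 356 of 655 probes (54.4%). Of these, 26 carry a solexa identifier and no miRNA name. Of the 356, 268 were detected on all 8 arrays, 31 on all V0 but not all V1 arrays, and 57 on all V1 but not all V0 arrays. Levels of different probes are not comparable with each other, only levels of 1 probe between fractions. Where signals are summed over a list, in normalized units before log2, bright probes weigh most and undetected probes are included.

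The arrays themselves were uneven. Before normalization, 326, 445, 466 and 449 probes were detected on V0 replicates 1 to 4, and 436, 443, 388 and 481 on V1 replicates 1 to 4. V0 replicate 1 and V1 replicate 3, the arrays with the fewest detected probes in their fractions, ranked the probes least like the others (Spearman correlation with the other 7 arrays 0.51 to 0.65 for V0 replicate 1 and 0.54 to 0.74 for V1 replicate 3). Across the 356 probes the median SD over arrays was 0.70 in V0 and 0.49 in V1, and it was 0.33 in V0 without replicate 1 and 0.34 in V1 without replicate 3. Differences between single probes that moved most on leaving out either array are given with and without it. Replicates 1 and 2 of both fractions lay on slide 1 and replicates 3 and 4 on slide 2, so fraction and slide were balanced.

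No miRNA differed between V0 and V1 past the threshold, an adjusted p of at most 0.05 in limma and at least a 2-fold difference (0 of 356 probes, 0%). The smallest adjusted p was 0.518, and 13 probes (3.65%) had an unadjusted p under 0.05 in the same fit, 10 with a higher mean in V0 (2.81%) and 3 with a lower one (0.843%). A share of about 0.05 falls under that limit when no probe differs. The median difference was 0.05, with most probes between -0.90 and 0.71, and 298 probes (83.7%) had means within 2-fold of each other. Precision was limited: the median SE of a difference was 0.76, and for only 18 probes (5.06%) did the 95% interval lie within 2-fold in either direction, so for most miRNAs a 2-fold difference was not detectable with these arrays.

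**Figure D1:**
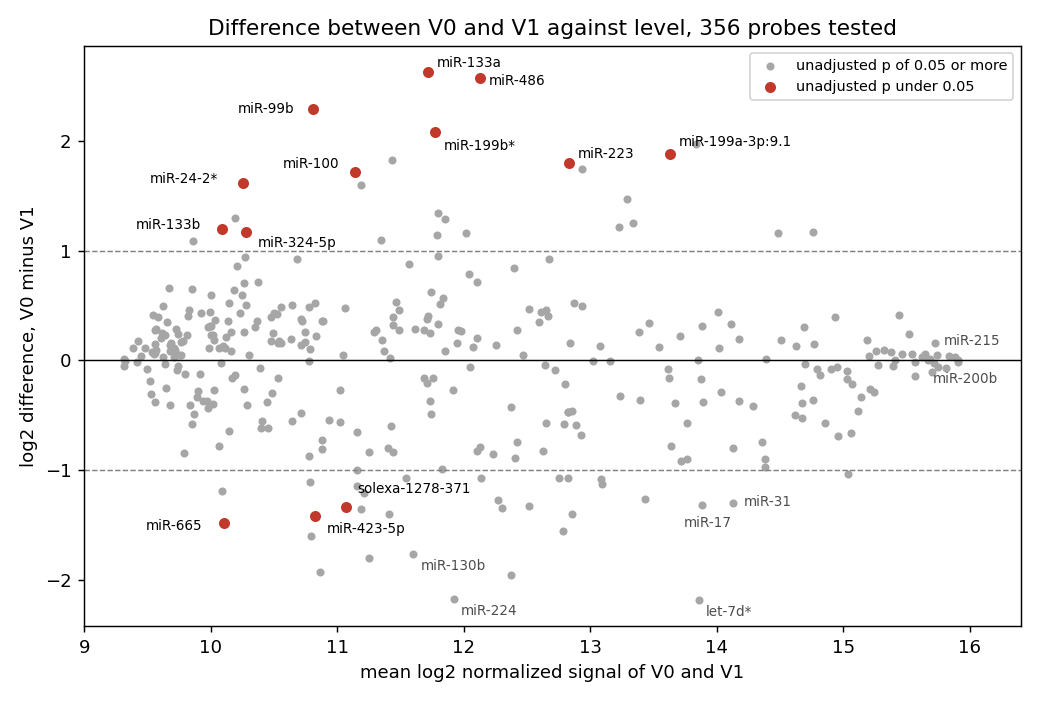
Each point is 1 of the 356 probes tested, with the mean log2 normalized signal of V0 and V1 (4 arrays each) on the x axis and the log2 difference, V0 minus V1, on the y axis, where the dashed lines mark 2-fold. The 13 probes at an unadjusted p under 0.05 (red) lie mostly above 0, and the bright epithelial miRNAs at the right lie close to 0.

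Several of the miRNAs with the largest V0 excess mark cells other than enterocytes. The striated muscle miRNA miR-133a had a log2 signal of 12.93, 13.55, 13.31 and 12.33 on the V0 arrays and 9.39, 10.90, 11.03 and 10.29 on the V1 arrays. Every V0 array thus lay above every V1 array, with means of 13.03 ± 0.53 in V0 and 10.40 ± 0.75 in V1 (SD, n = 4 arrays each). The log2 difference was 2.63 (SE 0.79, 6.18-fold, limma adjusted p = 0.518), the largest of the 356. Its relative miR-133b had 9.70, 11.89, 10.56 and 10.61 in V0 and 9.41, 10.12, 9.37 and 9.06 in V1, detected on 2 of 4 V1 arrays. For this probe the fractions overlapped, with a log2 difference of 1.20 (SE 0.50).

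The other striated muscle miRNAs had smaller differences or were not tested. The heart and muscle miRNAs miR-208a and miR-208b, each detected on 3 V0 arrays and 4 V1 arrays, had log2 differences of -0.40 (SE 0.77) and 0.23 (SE 0.47), both with overlapping arrays. miR-1, the most abundant miRNA of striated muscle, was detected on 0 of 4 V0 arrays and 1 of 4 V1 arrays (replicate 3), with a mean log2 difference of -0.67 and no test, and miR-499 on 0 of the 8. Of the 7 muscle probes 4 were tested, and 2 of these (miR-133a and miR-133b) were at least 2-fold higher, against 7.3% of all probes tested. miR-133b entered the test through V0 alone, the fraction where it was high, and only miR-133a of the list was detected on all 8 arrays. The summed signal of the list was 9654 to 18950 units on V0 arrays and 4546 to 10711 units on V1 arrays.

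Red cell miRNAs gave the next largest value. miR-486, abundant in red blood cells and also made in muscle, had 13.93, 12.83, 13.42 and 13.49 in V0 and 10.66, 12.47, 9.06 and 11.16 in V1, where it was detected on 3 of 4 arrays. It thus entered the test through V0 alone, the fraction where it was high. All V0 values were above all V1 values, and those of V0 were the tighter (SD 0.45 in V0 and 1.41 in V1, n = 4 each). Its log2 difference was 2.58 (SE 0.85, 5.98-fold, limma adjusted p = 0.518). miR-451, the main red cell miRNA, overlapped between the fractions with 11.99, 13.80, 13.70 and 9.95 in V0 and 11.70, 12.94, 10.28 and 9.91 in V1. The log2 difference of miR-451 was 1.15 (SE 0.90). miR-144, made from the same transcript as miR-451, was detected on none of the 8 arrays. Over these 3 probes the summed signal was 12976 to 24646 units in V0 and 2205 to 14018 units in V1.

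All 4 tested probes of the fibroblast and stroma list were at least 2-fold higher on average in V0, where 7.3% of all probes were, with a median log2 difference of 1.23 against 0.05 over all probes. These 4 are not independent markers. miR-199a-3p and miR-199a-5p are arms of the same hairpins, and the hairpin of miR-214 lies 5444 bases from that of miR-199a on chromosome 1. The probe shared by miR-199a-3p and miR-199b had 15.40, 15.38, 14.53 and 14.95 in V0 and 14.12, 14.15, 14.15 and 13.19 in V1, without overlap. Its log2 difference was 1.17 (SE 0.56). An older design of that miRNA, miR-199a-3p:9.1, had 15.42, 14.44, 14.15 and 14.26 in V0 and 13.15, 12.66, 13.29 and 11.63 in V1, also without overlap, with a log2 difference of 1.89 (SE 0.75). Both probes report 1 mature sequence and are not independent members.

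miR-199b*, from the other arm of the miR-199b hairpin, had 13.76, 12.63, 12.66 and 12.19 in V0 and 9.88, 10.23, 13.31 and 9.49 in V1. V1 replicate 3 alone was within the V0 range. The log2 difference of miR-199b* was 2.08 (SE 0.68, limma adjusted p = 0.518) with all arrays and 2.95 without V1 replicate 3 (limma adjusted p = 0.00856), where it was the only miRNA to pass. With V0 replicate 1 also left out, a setting added after the data were seen, it was 2.63 (limma adjusted p = 0.0362). Leaving out the only V1 array within the V0 range favours a difference, so these p-values are no support for one. miR-199a-5p (log2 difference 1.16, SE 0.90) and miR-214 (1.29) overlapped between the fractions. miR-214 had 2.20 without V0 replicate 1 and 0.73 without V1 replicate 3. The summed signal of the stromal list did not overlap, at 43757 to 81098 units on V0 arrays and 15910 to 32096 units on V1 arrays. This sum includes the bright probe shared by miR-199a-3p and miR-199b, itself without overlap, and so is not separate support.

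The smooth muscle miRNAs were brighter and closer. miR-145 had 15.48, 15.62, 15.77 and 15.72 in V0 and 14.82, 15.36, 15.38 and 15.36 in V1, without overlap but with a log2 difference of only 0.41 (SE 0.65). miR-143, processed from the same primary transcript, had 14.51, 15.77, 15.80 and 15.30 in V0 and 14.39, 14.85, 13.71 and 13.74 in V1, a log2 difference of 1.17 (SE 0.98) with 1 V0 array among the V1 values. The star strand miR-145* was detected on 3 V0 arrays and 1 V1 array and so was not tested. Summed over miR-143 and miR-145, the signal was 69045 to 112713 units in V0 and 50371 to 71677 units in V1.

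**Figure D2:**
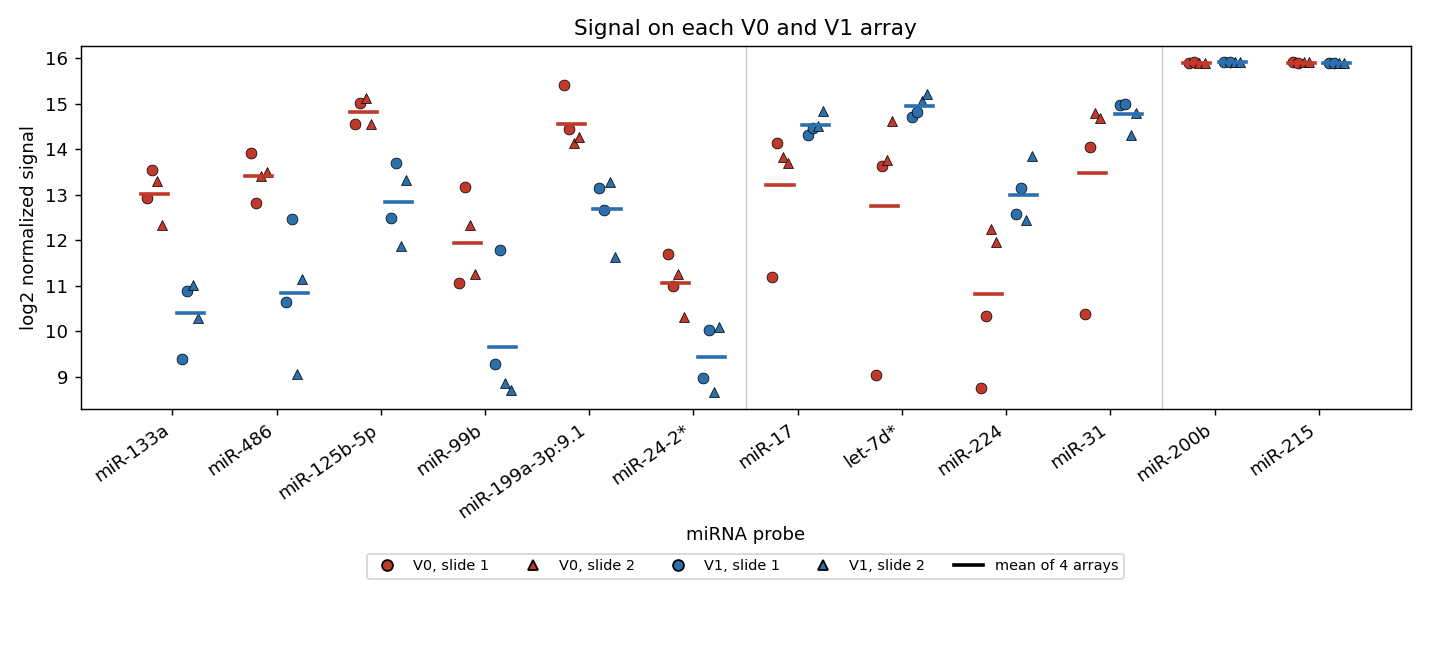
The log2 normalized signal of 12 probes on each V0 (red) and V1 (blue) array, with circles for slide 1, triangles for slide 2 and bars for the mean of 4 arrays. The left 6 probes have higher V0 means, the middle 4 have lower V0 means with V0 replicate 1 (leftmost red circle) far below the rest for miR-17, let-7d* and miR-31, and miR-200b and miR-215 sit near 15.9 in both fractions.

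Members of the miR-99, miR-100 and miR-125 group, which includes miR-99b and miR-100 with their shared seed shown above, were also higher in V0 on average (4 of 4 tested, against 55.3% of all probes). At least 2-fold higher were 3 of them, against 7.3% of all probes, and the median log2 difference was 1.85. Only miR-125a-5p and miR-125b-5p were detected on all 8 arrays. miR-99b and miR-100 entered the test through V0 alone, the fraction where they were high. miR-125b-5p, expressed widely in mesenchymal and neural cells, had 14.56, 15.03, 15.14 and 14.56 in V0 and 12.48, 13.70, 11.87 and 13.34 in V1. No V1 array reached the V0 values, and the log2 difference was 1.97 (SE 0.95). miR-99b had 11.06, 13.17, 12.33 and 11.26 in V0 and 9.28, 11.80, 8.87 and 8.71 in V1, detected on 2 of 4 V1 arrays, with a log2 difference of 2.29 (SE 0.89). miR-100 had 9.94, 13.40, 12.91 and 11.75 in V0 and 9.35, 11.60, 8.87 and 11.28 in V1, a log2 difference of 1.72 (SE 0.82). For miR-99b and miR-100 the fractions overlapped. miR-125a-5p had 0.32 (SE 1.27), and 0.76 without V0 replicate 1, and miR-99a, detected on 3 V0 and 2 V1 arrays, was not tested.

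Leukocyte and endothelial miRNAs gave a mixed picture. miR-223, which restrains neutrophil activation, had 11.87, 14.73, 14.44 and 13.88 in V0 and 10.67, 13.04, 10.57 and 13.44 in V1, a log2 difference of 1.80 (SE 0.85) with overlapping arrays. The other 6 leukocyte probes had differences between -1.07 and 0.52, miR-150 of lymphocytes 0.39 (SE 1.22; 0.14 without V1 replicate 3), and the median of all 7 was 0.09. Their summed signal was 99185 to 157026 units in V0 and 50424 to 153829 units in V1. The endothelial pair read 1.25 (SE 0.85) for miR-126-5p and 0.28 (SE 0.66) for miR-126-3p, and without V1 replicate 3 they read 0.71 and -0.03. For miR-126-5p the log2 difference was 0.35 on slide 1 and 2.15 on slide 2. The pair had a summed signal of 6900 to 48686 units in V0 and 3397 to 17729 units in V1.

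The epithelial miRNAs that define the tissue had nearly the same means in both fractions. All 8 probes of the miR-200 family and of miR-192, miR-194 and miR-215 were tested, with a median log2 difference of 0.01 (range -0.04 to 0.47), and 7 of them were detected on all 8 arrays. miR-200b, which keeps epithelial cells from a mesenchymal state through Zeb1 and Zeb2, had a mean of 15.90 ± 0.01 in V0 and 15.91 ± 0.00 in V1 (SD, n = 4 arrays each). miR-215 averaged 15.91 in V0 and 15.90 in V1. These probes lay at the top of the scale, whose highest value was 15.91, where differences were small for every probe: the 30 probes above 15 in both fractions had a median absolute difference of 0.06 and a largest one of 0.41. Their summed signal was 297366 to 338394 units in V0 and 268630 to 354225 units in V1. The dimmer miR-141 of the same family had 13.31, 11.70, 13.61 and 12.37 in V0 and 13.42, 13.38, 9.14 and 13.17 in V1, with V1 replicate 3 apart. Its log2 difference was 0.47 with that array and -0.57 without it. What part the muscle, stromal, red cell, leukocyte and endothelial markers have in the difference between both fractions was not tested, and in RNA from a whole fraction more cells of a type and more RNA per cell cannot be told apart.

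**Figure D3:**
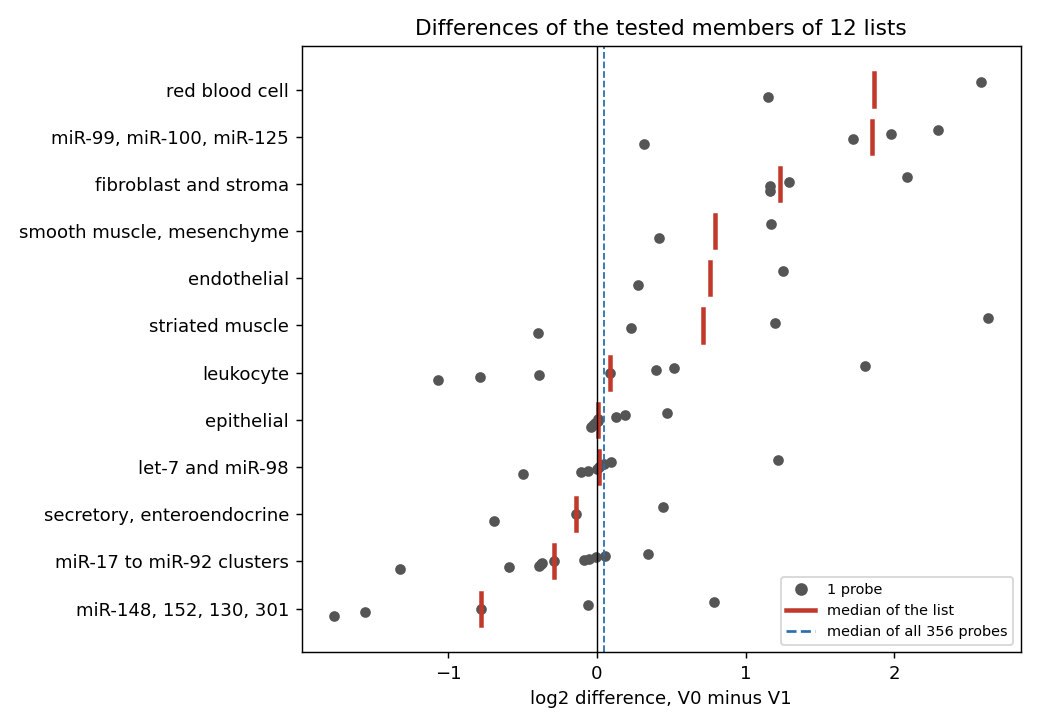
Log2 differences, V0 minus V1, of the tested members (points) of 12 lists, with each list's median (red bar) and the median of all 356 probes (dashed line). Red cell, miR-99, miR-100 and miR-125, and stromal miRNAs lie to the right, and the miR-17 to miR-92 clusters lie mostly to the left. Epithelial and let-7 miRNAs have medians near 0, with ranges of -0.04 to 0.47 and of -0.50 to 1.22 (let-7e).

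Further probes with higher V0 means came from outside the marker lists. miR-24-2*, the minor strand of a hairpin on chromosome 8 at chr8:84208839-84208860, had 11.70, 10.99, 11.26 and 10.32 in V0 and 8.98, 10.04, 8.67 and 10.10 in V1, where 2 of 4 arrays detected it. The fractions did not overlap, and miR-24-2* entered the test through V0 alone, the fraction where it was high. Its log2 difference was 1.62 (SE 0.47, limma adjusted p = 0.518), with the smallest unadjusted p of all probes, 0.00265 in limma. miR-195, which shares its seed with the miR-15 and miR-16 family of cell cycle regulators, had 14.73, 14.26, 13.27 and 12.97 in V0 and 12.97, 13.08, 10.40 and 11.80 in V1. On each slide both V0 arrays of miR-195 lay above both V1 arrays, and the log2 difference was 1.75 (SE 0.91). miR-221 had 1.83 (SE 1.06) and 0.97 without V0 replicate 1. Also among the 26 probes at least 2-fold higher in V0 were miR-466d-3p (1.60, SE 1.06), miR-376b* (1.30, SE 0.71, no overlap between the fractions), miR-324-5p (1.17, SE 0.54, and 0.69 without V0 replicate 1) and miR-379 (1.09, SE 0.58). miR-181a had 1.48 with all arrays and 0.61 without V1 replicate 3. let-7e, of the let-7 family that holds back growth genes, had 14.00, 15.21, 13.05 and 13.08 in V0 and 13.38, 13.85, 11.38 and 11.87 in V1. It was higher in V0 on each slide, with a log2 difference of 1.22 (SE 1.03), and 0.80 without V1 replicate 3.

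On the other side, 32 probes (8.99%) were at least 2-fold lower in V0, against the 26 (7.3%) at least 2-fold higher. By overlap of single arrays the order was the other way. The V0 arrays lay wholly above the V1 arrays for 8 probes (2.25%) and wholly below them for 4 (1.12%), 12 in all (3.37%). When no probe differs, 4 against 4 arrays separate fully, in either direction, for a share of about 0.0286. The lower ones were let-7d*, miR-224, miR-17 and a probe with a solexa identifier. let-7d* had 9.04, 13.64, 13.76 and 14.63 in V0 and 14.71, 14.82, 15.06 and 15.21 in V1. miR-224 had 8.76, 10.34, 12.26 and 11.97 in V0 and 12.59, 13.15, 12.45 and 13.85 in V1. For both, V0 replicate 1 was the lowest of the 8 arrays. The log2 difference of let-7d* was -2.18 (SE 1.41) and -0.94 without V0 replicate 1, and that of miR-224 was -2.18 (SE 1.28) and -1.48 without it.

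miR-17, of the cluster that drives proliferation downstream of Myc, had 11.20, 14.15, 13.83 and 13.70 in V0 and 14.32, 14.48, 14.51 and 14.85 in V1. Its log2 difference was -1.32 (SE 1.31), and -0.65 without V0 replicate 1. Its seed partner miR-20a, encoded beside it, had 14.15, 14.48, 14.63 and 14.65 in V0 and 14.65, 15.09, 14.73 and 14.98 in V1, a log2 difference of -0.39 (SE 0.47). Of the 11 tested probes of the miR-17 to miR-92 clusters 9 had a lower mean in V0, against 159 of all 356 probes. The median log2 difference of the 11 was -0.29 against 0.05 over all probes, and 1 was at least 2-fold lower, against 8.99% of all probes. That median was -0.43 on slide 1, which held V0 replicate 1, and -0.07 on slide 2. On both slides 5 of the 11 were lower, against 81 of all 356 probes. miR-92a, at the far end of the cluster, had -0.29 (SE 1.01).

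At an unadjusted p under 0.05 the lower probes were miR-665, miR-423-5p and a probe with a solexa identifier. miR-665, of the imprinted Dlk1-Dio3 cluster on chromosome 12, had 10.37 on V0 replicate 3, the only V0 array that detected it, and 8.97 to 9.095 on the others, against 10.82, 9.54, 11.82 and 11.20 in V1, where all 4 arrays did. The fractions overlapped through V0 replicate 3, and miR-665 entered the test through V1 alone, the fraction where it was high. miR-665 differed by -1.48 on the log2 scale (SE 0.48), and its adjusted p in limma was 0.518. miR-423-5p had 10.42, 9.94, 10.16 and 9.94 in V0 and 12.57, 12.21, 10.16 and 11.21 in V1, a log2 difference of -1.42 (SE 0.67). Its V1 arrays of slide 1 were well above every V0 array and V1 replicate 3 was level with V0. The log2 difference of the solexa probe was -1.34 (SE 0.59). Besides miR-665, the probes detected on all 4 V1 arrays and on at most 1 V0 array were miR-187 (log2 difference -0.84) and miR-551b:9.1 (-0.05). For miR-187, V1 replicate 3 read 12.15 and the other V1 arrays 9.40 to 9.72, and without it the log2 difference was -0.20.

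miR-130b (-1.76, SE 0.88) and miR-148b (-1.56, SE 1.46) led a group of miR-148, miR-152, miR-130 and miR-301 probes with a median log2 difference of -0.78 over 5 tested. That median was -1.70 on slide 1 and 0.14 on slide 2. miR-130b had -2.97 on slide 1 and -0.56 on slide 2, and miR-148b, one of 4 probes that differed between the slides themselves, had -0.74 without V0 replicate 1. miR-31, an epithelial miRNA active in intestinal stem cell renewal, had 10.37, 14.05, 14.80 and 14.68 in V0 and 14.98, 15.00, 14.32 and 14.80 in V1. Apart from V0 replicate 1 the fractions were level, and the log2 difference of -1.30 (SE 1.30) was -0.26 without that array. miR-22 had -0.80 (SE 0.48) and -0.27 without the same array, its V1 values (14.53, 14.51, 14.56 and 14.51) being tighter than those in V0 (12.12, 13.97, 14.91 and 13.91). miR-375, of enteroendocrine and goblet cells, had -0.69 (SE 0.89), and -0.14 without V0 replicate 1. The 3 secretory probes had a median of -0.14, with a summed signal of 54456 to 108703 units in V0 and 88808 to 116377 units in V1.

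Both slides held 2 arrays of each fraction, so the difference could be measured on each, with no array in common. Across the 356 probes the differences on slide 1 and slide 2 were nearly unrelated (Pearson 0.03, Spearman -0.05, across probes, which share arrays and are not independent), and 149 probes (41.9%) had the same sign on both. V0 replicate 1 lay on slide 1 and V1 replicate 3 on slide 2. Each slide's difference thus held 1 of the arrays that ranked the probes least like the others, in opposite fractions. In either direction, 107 probes were at least 2-fold on slide 1 and 79 on slide 2. A smaller set was at least 2-fold in the same direction on both slides, 16 probes higher in V0 (4.49%) and 6 lower (1.69%). miR-133a had a log2 difference of 3.09 on slide 1 and 2.16 on slide 2, miR-486 1.81 and 3.35, miR-125b-5p 1.70 and 2.24, and miR-199a-3p:9.1 2.03 and 1.75. On the lower side were miR-701 (-1.51 and -1.19), miR-770-5p (-1.40 on slide 1, and -0.74 over both slides without V1 replicate 3), miR-224 (-3.32 and -1.03), miR-665 (-1.15 and -1.82), miR-340-5p (-1.04 and -1.25) and a solexa probe (-1.17 and -1.09). The difference between the slides' contrasts passed for 0 of 356 probes in limma (9 at an unadjusted p under 0.05).

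**Figure D4:**
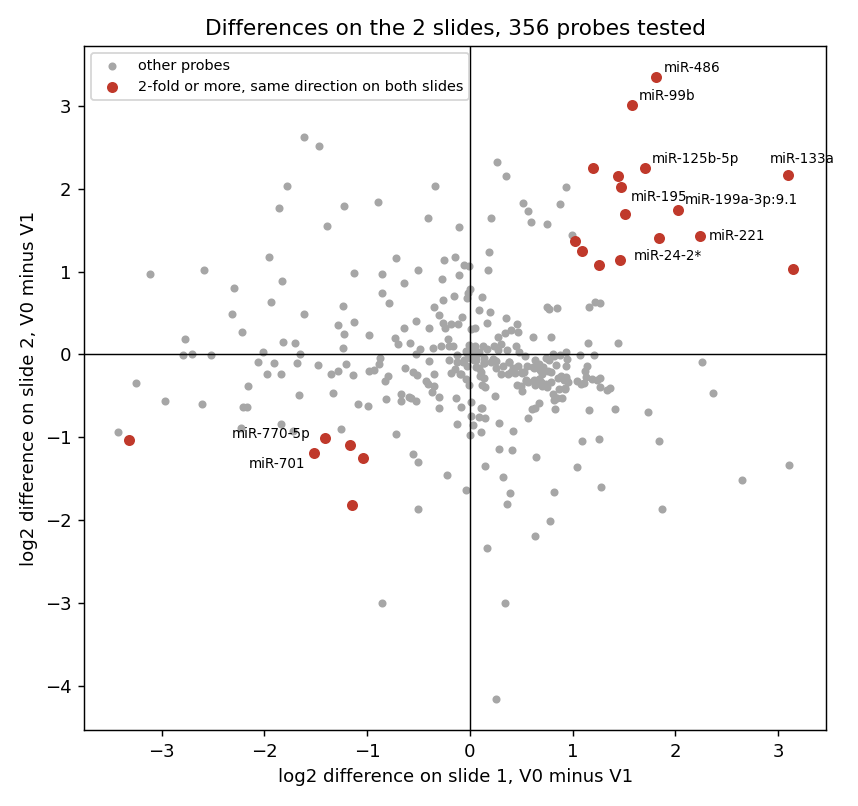
The log2 difference, V0 minus V1, on slide 1 (x axis) and on slide 2 (y axis) for the 356 probes tested, each from 2 arrays of either fraction. The cloud has no slope (Pearson 0.03), and the 22 probes at least 2-fold in the same direction on both slides (red) include miR-133a, miR-486, miR-99b and miR-125b-5p in the upper right. Slide 1 holds V0 replicate 1 and slide 2 holds V1 replicate 3, the arrays that ranked the probes least like the others.

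Between the slides themselves, within V0 and V1, 4 probes differed past an adjusted p of 0.05 in limma (40 at an unadjusted 0.05). A fixed slide term was also fitted on the 8 arrays alone. In that limma fit 0 probes passed between V0 and V1 and 32 (8.99%) had an unadjusted p under 0.05, 16 higher and 16 lower in V0, of which 9 were among the 13 above. The smallest adjusted p was then 0.170, for miR-701 (log2 difference -1.35, SE 0.22) and for miR-133a (2.63, SE 0.46). Without the block, miR-701 had 11.30, 11.09, 9.75 and 9.90 in V0 and 12.85, 12.57, 11.34 and 10.70 in V1. Its 2 slides sat at different levels, and on each the V0 arrays were the lower.

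Set in the whole series, V0 had the highest mean of the 5 fractions for 76 of the 356 probes (21.3%). About 1 probe in 5 would be highest there if no fraction differed, and probes were admitted by detection in V0 or V1. The leading probes were named by their difference between V0 and V1. They followed different courses, given here as mean log2 signals from C1 over V3, V2 and V1 to V0. miR-133a had 10.51, 10.87, 10.73, 10.40 and 13.03, miR-486 had 10.37, 11.10, 10.64, 10.84 and 13.42, and miR-125b-5p had 12.33, 12.24, 12.30, 12.85 and 14.82, so that all 3 means were near level through the other fractions and highest at the tip. miR-199a-3p:9.1 had 14.29, 12.50, 12.34, 12.68 and 14.57, and miR-195 had 14.08, 12.28, 12.04, 12.06 and 13.81. These were high at both ends of the axis, and miR-195 and miR-221 were highest in C1. miR-224 ran 10.27, 11.63, 11.96, 13.01 and 10.83, with its peak in V1, where let-7d*, miR-17 and miR-31 also peaked. The V0, V1 and V2 arrays lay on slides 1 and 2, the V3 arrays on slides 2 and 3 and the C1 arrays on slides 2, 3 and 4, so that along these courses fraction is partly mixed with slide. Within V0 and V1, miR-195 differed by -1.65 (slide 2 minus slide 1, log2), about the size of its course. No test was made on these courses, and the part of slide in them was not tested.

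**Figure D5:**
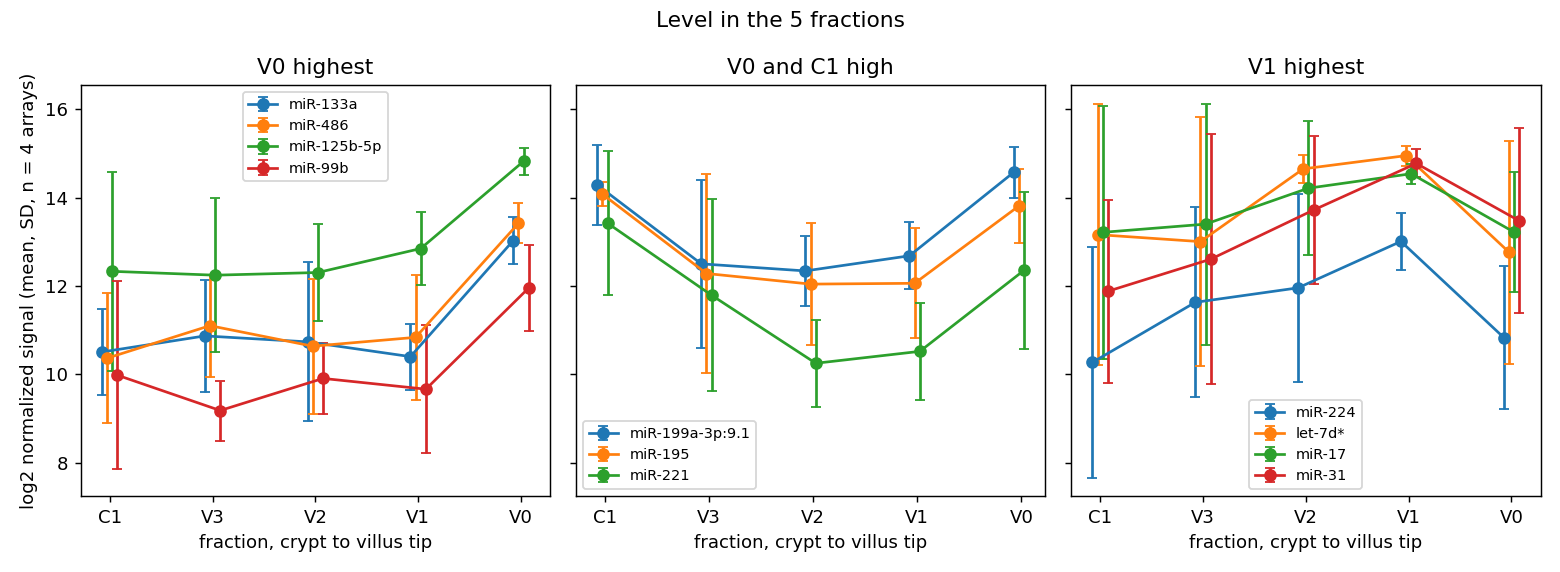
Mean log2 normalized signal (bars, SD over 4 arrays) in the 5 fractions from crypt (C1) to villus tip (V0), for probes highest in V0 (left), high in V0 and C1 (middle) and highest in V1 (right). miR-133a, miR-486, miR-125b-5p and miR-99b are flat until V1 and higher in V0, and the SDs are wide in most fractions.

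The remaining families had medians on both sides of the overall 0.05. Tested members of the let-7 family with miR-98 had a median log2 difference of 0.02 (9 probes), the miR-29 family 0.26 (3; -0.34 on slide 1 and 1.02 on slide 2), the miR-30 family 0.10 (4), miR-23, miR-27 and miR-24 0.04 (5), the miR-15 and miR-16 family -0.01 (3), miR-10 and miR-196 -0.14 (3), miR-26, miR-103 and miR-107 -0.05 (4), and miR-183, miR-96 and miR-182 0.21 (3). The miR-181 family had 1.20 (2), miR-21, miR-221 and miR-222 had 0.93 (2), and the only tested member of the miR-34 family had 0.39. Strand pairs gave -0.88 for miR-31, -0.36 for miR-378 and -0.36 for miR-22, 2 probes each. Among the large clusters, the Dlk1-Dio3 probes had a median of 0.25 (25 tested, 22 with a higher mean in V0, against 55.3% of all probes), the Sfmbt2 cluster 0.31 (22), the X-linked miR-463 to miR-883 probes 0.14 (8) and the miR-290 and miR-302 clusters 0.12 (6). Their medians were 0.59, 0.77, 0.62 and 0.44 on slide 1, and -0.21, -0.29, -0.33 and -0.17 on slide 2. The 2 tested neuronal probes had a median of -0.29, with a summed signal of 4902 to 29363 units in V0 and 6789 to 26192 units in V1.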

How the data were processed

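miRNAs of 5 ileal epithelial fractions were measured with 4 arrays each, 20 Illumina bead arrays in all. The authors processed the scans with Genome Studio, normalized them together by the quantile method and did not subtract background. The deposited tables give an average signal intensity per probe, once raw and once normalized, with a detection p-value that the authors' software assigned to each probe on each array. The deposited value table equals the normalized intensity (largest difference 0), all 20 columns could be mapped, and as for a genome build, none was given in the sources used here.

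Normalized intensity was taken to log2 (floor 1, reached by 0 values) before a linear model of all 20 arrays, with a mean for each fraction and 1 shared estimate of the spread, was fitted by lmFit and eBayes of limma (version 3.58.1, under R 4.3.3). V0 minus V1 was tested over the 356 probes that all 4 V0 arrays or all 4 V1 arrays detected (p of 0.01 or less), with Benjamini-Hochberg adjustment, and calls were made at an adjusted p up to 0.05 with at least a 2-fold difference. Each SE and 95% interval uses the moderated spread, and each SD is over 4 arrays. Replicate numbers only name arrays. Slides were read from the number that heads each array's title. Figures were drawn with matplotlib.

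Members and lists were chosen with earlier results of these data known. Named were the probes at an unadjusted p under 0.05, those whose V0 and V1 arrays do not overlap, members of 32 lists (23 families and clusters and 9 cell type marker lists), probes detected on all 4 arrays of 1 fraction and at most 1 of the other, and those with the largest 2-fold differences on both slides. Every other name was chosen after its values were seen. The rule also took in miRNAs charted by the study between V0 and C1, which are not reported as a group because their names had been read from a picture. The fit was checked on simulated data. Alternatives changed the normalization, the detection filter, the handling of slide, the arrays in the fit, the spread model or the test, and those that leave out V0 replicate 1 with V1 replicate 3 or hold the set of probes constant under leave-one-out were added after the data were seen.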

Additional observations from a re-analysis of the deposited data

Results flagged for a closer look

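In groups of 4 arrays, an array was called far from the others when its gap to the nearest one, as a share of the group's range, exceeded Dixon's 95% critical value. Screened were the V0 and V1 arrays for probes reported in the text, for the number of detected probes and for the median signal. An array was far from the others in 12 of 120 groups. Chance gives about 5% for independent groups chosen beforehand. These probes were in part chosen on the same values and share arrays, so that rate does not apply to them as a set. The 5 on V1 replicate 3 were the log2 signals of miR-1 (11.91), miR-141 (9.14), miR-181a (9.95), miR-187 (12.15) and miR-215 (15.90). On V0 replicate 1 there were 3, the log2 signals of miR-17 (11.20) and miR-31 (10.37) and the number of detected probes before normalization (326). V0 replicate 3 stood apart for miR-665 (10.37), V0 replicate 2 for miR-215 (15.90), V1 replicate 4 for the probe of miR-199a-3p and miR-199b (13.19), and V1 replicate 1 for miR-145 (14.82). For miR-215 the other values of each fraction were identical (15.91 in V0, 15.90 in V1), so that its gaps are of the size of rounding.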

How the results depend on the processing

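No paired analysis was possible because the labels pair no arrays by mouse. With all arrays in the fit no alternative gave a call. Leaving out 1 array gave 0 to 3 calls. Without V0 replicate 1 these were miR-127 (1.40, limma adjusted p = 0.0249), miR-145* (1.77, 0.0434) and miR-9 (1.90, 0.00651), none of which passed the detection filter with all arrays, and 0 with the probes kept fixed. With all arrays and no detection filter they had limma adjusted p of 0.413, 0.512 and 0.498. Without V1 replicate 3 miR-199b* passed, as it did without both arrays (1 call each).

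The 13 probes at an unadjusted p under 0.05 became 5 with detection on all 8 arrays, 20 with no detection filter, 32 with slide as a fixed block on the 8 arrays, 26 on the 8 arrays alone, 25 on slide 1 alone, 8 on slide 2 alone, 8 to 18 when 1 array was left out, and 7 without V1 replicate 4 with the probes kept fixed. The exact rank-sum test, whose p cannot fall below 0.0286, gave 12. The causes were not tested beyond the number of probes or arrays each alternative uses. Centring arrays on their median moved the median difference of all probes from 0.05 to -0.07 and the share with a higher V0 mean from 55.3% to 45.5%.

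Over 31 alternatives the list medians were 1.01 to 1.64 for fibroblast and stroma, 1.15 to 2.54 for red blood cell, 0.54 to 2.63 for striated muscle, 0.48 to 1.098 for smooth muscle, 1.15 to 2.39 for miR-99, miR-100 and miR-125, and -0.46 to -0.07 for the miR-17 to miR-92 clusters. Some ends rest on 1 probe. With detection on all 8 arrays only miR-133a (2.63) remained of the striated muscle list and only miR-451 (1.15) of the red blood cell list. miR-133a ranged from 2.16 to 3.34, miR-486 (30 alternatives) from 1.81 to 3.39 and miR-125b-5p from 1.63 to 2.26, with limma adjusted p of 0.136 or more in each.

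The sign turned in these cases (log2 differences). With no normalization: miR-215 -0.0034. Centred on the median: miR-215 -0.089, miR-125a-5p -0.00112. On slide 1 alone: miR-125a-5p -0.27, miR-141 -0.89, miR-551b:9.1 0.10. On slide 2 alone: miR-31 0.18, miR-208b -0.16. Without V0 replicate 1: miR-208b -0.12. Without V0 replicate 2: miR-126-3p -0.29. Without V0 replicate 3: miR-551b:9.1 0.024. Without V1 replicate 3: miR-126-3p -0.031, miR-141 -0.57. Without both V0 replicate 1 and V1 replicate 3: miR-141 -0.76, miR-208a 0.16, miR-208b -0.057. Leaving out 1 array moved these probes furthest the other way for miR-126-3p (0.83 without V0 replicate 4), miR-141 (0.85 without V1 replicate 1), miR-208b (0.44 without V0 replicate 3) and miR-551b:9.1 (-0.21 without V0 replicate 1).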
